A study of Homo sapiens with 24 samples.

Results

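Genes of the luminal prostate cell and of androgen receptor action are described here, namely KLK2, KLK3, TMPRSS2, HOXB13, FOXA1, GATA2 and CD24. They were chosen by name. Every probe set whose annotation gives one of these 7 symbols and no other was taken, which gave 24 probe sets out of 54613, and 7 genes out of 19775 that the annotation names. They were measured in RWPE1, an immortalized, non-tumorigenic line of human prostate epithelium. The cells received 100 nM 1,25(OH)2D (hormonal vitamin D) or vehicle, which was 0.1% ethanol, and were harvested after 6, 24 or 48 h. Each of the 6 groups (vehicle 6 h, 1,25(OH)2D 6 h, vehicle 24 h, 1,25(OH)2D 24 h, vehicle 48 h and 1,25(OH)2D 48 h) had 4 biological replicates, and each replicate was hybridized to its own Affymetrix whole-genome array. All groups were the same line in a serum-free keratinocyte medium with insulin, EGF and FGF, and no androgen is named among its supplements. The medium of the 48 h cultures, vehicle included, was replaced at 24 h, so the length of culture and this replacement cannot be told apart at 48 h. The samples are a single cell line, so nothing here shows how another prostate line would respond.

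The prostate gland has a basal layer that rests on the basement membrane and a luminal layer that faces the duct and secretes the prostatic fluid. Luminal cells depend on the androgen receptor, a hormone-activated transcription factor. FOXA1 opens chromatin for the receptor, GATA2 and HOXB13 act beside it at many of its enhancers, and KLK2, KLK3 and TMPRSS2 are among its classical targets. KLK3 encodes prostate-specific antigen, KLK2 is its close relative and also a secreted serine protease, and TMPRSS2 is a serine protease of the cell surface. CD24 is a small, heavily glycosylated protein held to the membrane by a lipid anchor and is widely used to mark luminal epithelium.

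KLK3 and KLK2 are neighbours on chromosome 19 (GRCh38.p14, 50854915 to 50860764 and 50873439 to 50880567). Their promoters share an androgen response element, and the 60 bases around it are shown for both genes. The letters GAACANNNAGTGCT, searched on both strands, are in capitals.
KLK3 (chr19:50854723-50854782, plus strand): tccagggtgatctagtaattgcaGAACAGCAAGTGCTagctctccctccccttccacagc
KLK2 (chr19:50873241-50873300, plus strand): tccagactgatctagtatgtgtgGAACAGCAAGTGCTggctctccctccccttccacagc

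The fragments have the same base at 53 of 60 positions. The element lies 169 to 156 bases before the start of KLK3 and 175 to 162 bases before that of KLK2. The letters occur in 0.0429% of 34943 RefSeq promoters of 300 bases, each reaching from 250 bases before the start to 50 after it.

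GATA2 (chromosome 3, 128479422 to 128493201) and CD24 (chromosome 6, 106969831 to 106976855) are the genes whose levels moved, so one promoter of each is shown. AGGTCA, a half-site of the kind that the vitamin D receptor binds, was searched on both strands and is in capitals where it was found.
GATA2 (chr3:128493152-128493451, minus strand): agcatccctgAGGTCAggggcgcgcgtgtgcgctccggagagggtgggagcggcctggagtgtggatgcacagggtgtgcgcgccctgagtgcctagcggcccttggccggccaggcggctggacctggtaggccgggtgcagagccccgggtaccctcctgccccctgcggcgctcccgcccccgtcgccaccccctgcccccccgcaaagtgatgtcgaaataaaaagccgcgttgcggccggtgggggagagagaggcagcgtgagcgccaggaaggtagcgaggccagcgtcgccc
CD24 (chr6:106975578-106975877, minus strand): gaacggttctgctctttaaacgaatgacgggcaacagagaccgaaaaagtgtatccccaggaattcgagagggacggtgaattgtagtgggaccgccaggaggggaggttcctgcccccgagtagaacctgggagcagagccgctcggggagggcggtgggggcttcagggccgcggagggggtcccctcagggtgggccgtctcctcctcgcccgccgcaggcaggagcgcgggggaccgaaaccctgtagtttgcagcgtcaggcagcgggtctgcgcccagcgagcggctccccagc

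AGGTCA occurs 1 time in this GATA2 promoter, 240 to 235 bases before the start. It occurs in neither the other GATA2 promoter nor any of the 3 CD24 promoters. The KLK2 promoter, of a gene that was not detected, also holds it, on the minus strand 221 to 216 bases before the start, outside the stretch shown, and 13.8% of all promoters hold it. The full element of paired half-sites, DR3, was found in none of the 8 promoters of 5 of the genes and in 0.0744% of all promoters. Such matches describe letters only.

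Arrays of one group differed mainly along a single direction. After the group mean was taken off each value, the first component held 71.9% of the variance, and 4 of 24 arrays lay over 0.3 from their group mean on it: vehicle 6 h replicate 1, vehicle 24 h replicate 1, and 1,25(OH)2D 24 h replicates 1 and 4. CYP24A1, the enzyme that degrades 1,25(OH)2D and the usual check of treatment, was higher with 1,25(OH)2D by 10.08, 6.10 and 5.99 (log2) at 6, 24 and 48 h (adjusted p = 3.38e-08, 0.00220 and 4.63e-06). The replicates are labelled biological, but no source says how the cultures were kept apart, and p-values then measure only the spread between these samples. Arrays have no read depth, and their number limits the precision.

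KLK2, TMPRSS2, HOXB13 and FOXA1 were not detected in RWPE1 cells in any group. A probe set counted as detected, and was tested, if the third-highest of the 4 values in any group was 3.21 or more (log2 intensity), the lowest value that kept as many probe sets as the study did. The 4 genes have 12 probe sets (4, 4, 2 and 2), and none passed. Of the 24 probe sets 8 passed, namely 1 of 3 for KLK3, 1 of 3 for GATA2 and 6 of 6 for CD24.

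The 16 probe sets that did not pass stayed at the bottom of the scale in all 6 groups. None of their 384 values reached the lowest value kept, and they ran from 1.73 to 3.04. In 13 of the 16 the whole range over 24 arrays was under 0.3. KLK2 values ran from 1.98 to 2.77 over its 4 probe sets, and those of TMPRSS2 from 1.81 to 2.38. HOXB13 values, from a homeobox gene of the posterior body and prostate, ran from 1.73 to 2.18. FOXA1 values ran from 2.39 to 2.76. Treatment and vehicle arrays overlapped throughout at these genes, and such values at the floor of the scale have no order that could be read.

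**Figure D1:**
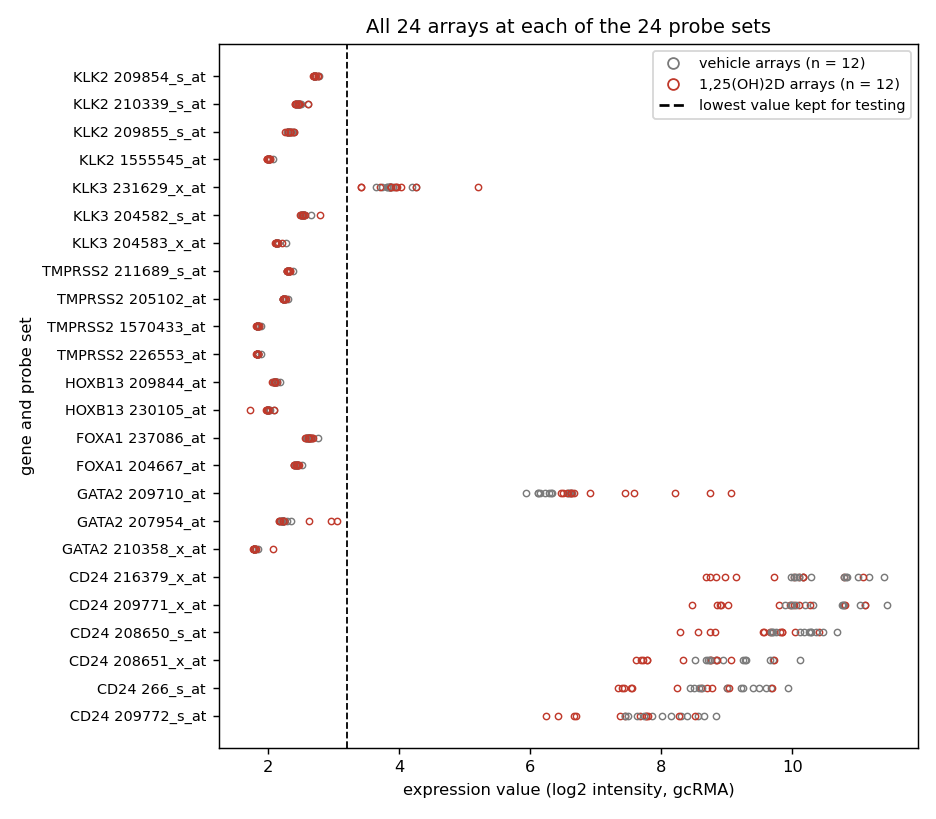
Expression values (x axis, log2 intensity) of the 24 probe sets (y axis), with 1 circle for each of the 24 arrays, vehicle in grey and 1,25(OH)2D in red, and a dashed line at the lowest value kept, 3.21. The 16 probe sets left of the line include every one for KLK2, TMPRSS2, HOXB13 and FOXA1, while the 6 CD24 probe sets lie between 6.24 and 11.4.

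Passing the filter does not by itself show expression. ALB, the serum albumin gene of the liver, passed with values from 3.47 to 3.78, as the only 1 of 9 genes of distant tissues to do so. Genes at the bottom of the scale may still be transcribed below what these arrays resolve, so not detected is not the same as absent.

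The only KLK3 probe set that passed, 231629_x_at, gave 3.42 to 5.20 and changed in none of the comparisons. The ending x_at marks a probe set that can bind other transcripts too. The values were 4.19, 3.86, 3.81 and 3.87 in vehicle and 4.03, 3.95, 3.42 and 3.85 with 1,25(OH)2D at 6 h. At 24 h they were 4.26, 3.73, 3.84 and 3.85 against 3.71, 3.96, 3.86 and 5.20. At 48 h they were 3.81, 3.91, 3.84 and 3.64 against 4.26, 3.42, 3.93 and 3.87.

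The treated and vehicle ranges of KLK3 overlapped at all 3 times. The highest value belonged to 1,25(OH)2D 24 h replicate 4, one of the arrays that stand apart. Over the 24 arrays, the deviation of this probe set from its group means had a correlation of -0.855 with the position on the first component. The differences at the 3 times were -0.12, 0.26 and 0.07 in turn (log2, adjusted p = 1.00, 0.660 and 0.910), with 95% intervals of -0.47 to 0.23, -0.51 to 1.03 and -0.30 to 0.45. The other KLK3 probe sets, 204582_s_at and 204583_x_at, ran from 2.49 to 2.78 and from 2.11 to 2.27.

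GATA2, a zinc-finger factor first known from blood stem cells, rose after 6 h of 1,25(OH)2D and stood much nearer to vehicle later. The 4 vehicle values of probe set 209710_at at 6 h were 6.61, 6.32, 6.12 and 6.57. The 4 treated values were 9.06, 7.58, 8.21 and 8.74. All 4 treated arrays lay above all 4 vehicle arrays, as in 3.86% of all tested probe sets at 6 h. Replicate 2 was the lowest of the treated arrays.

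The 6 h means were 8.40 ± 0.646 with 1,25(OH)2D and 6.40 ± 0.227 in vehicle (SD, n = 4). The difference was 2.00 (SE 0.302, log2), a 3.99-fold rise, with an adjusted p of 0.0105. It was the only member probe set among the 8 tested that changed at 6 h, where 2.69% of all tested probe sets did. It kept this call under all 17 alternatives run.

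At 24 h the vehicle values were 6.58, 6.22, 6.33 and 6.63, and the treated values 6.62, 6.91, 6.61 and 7.44. The groups overlapped, and the highest treated value was that of replicate 4, which stands apart. The difference of 0.45 (SE 0.203) had a 95% interval of -0.02 to 0.93 and an adjusted p of 0.593. At 48 h the vehicle values were 6.15, 6.11, 5.94 and 6.29, and the treated values 6.50, 6.56, 6.47 and 6.66. The groups were separate again, with treated wholly above vehicle, as in 6.82% of all tested probe sets at 48 h. The step was smaller, at 0.43 (SE 0.0798, 1.34-fold, adjusted p = 0.0144). This call was lost with all 24 arrays in one fit (adjusted p = 0.579).

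**Figure D2:**
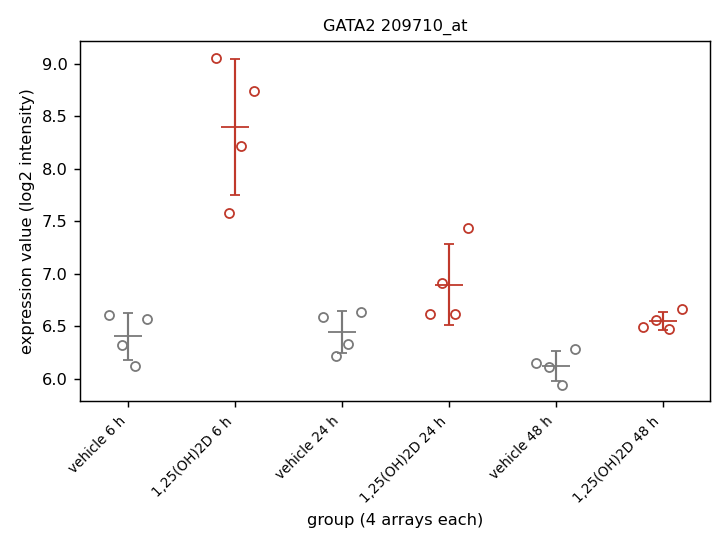
GATA2 probe set 209710_at in the 6 groups (x axis), with 1 circle per array and a horizontal bar with SD for the mean of 4 arrays (y axis, log2 intensity, not starting at 0). The 1,25(OH)2D 6 h arrays lie between 7.58 and 9.06, above every other array of that gene.

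The effect on GATA2 was smaller at the later times by the test of the difference itself, in a fit of all 24 arrays. It fell by 1.54 from 6 to 24 h (SE 0.325, adjusted p = 0.0104) and by 1.57 from 6 to 48 h (adjusted p = 0.00768), and the change from 24 to 48 h was -0.03 (adjusted p = 0.978). Of the 8 tested probe sets 1, 2 and 0 passed in these comparisons, in that order, where 2.12%, 2.8% and 0.0346% of all tested probe sets did. Both GATA2 differences missed the threshold without replicate 1, 3 or 4 of every group, with adjusted p of 0.0574, 0.207 and 0.0589 for 24 h and 0.0605, 0.112 and 0.0662 for 48 h.

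Vehicle cells kept a level with no called change: GATA2 differed by 0.04 from 6 to 24 h and by -0.28 from 6 to 48 h (adjusted p = 0.957 and 0.519). With 1,25(OH)2D it fell 2.83-fold from 6 to 24 h and 3.60-fold from 6 to 48 h (adjusted p = 1.28e-04 and 6.00e-06). These comparisons use the same treated arrays as the treatment effects. In the order of the group means, 1,25(OH)2D 6 h stood first and did not overlap with 1,25(OH)2D 24 h, and all the following neighbours overlapped.

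Of the other GATA2 probe sets, 207954_at read 2.95 and 3.04 in 1,25(OH)2D 6 h replicates 1 and 2 and 2.21 in both replicates 3 and 4, and its next highest value was 2.63 in 1,25(OH)2D 48 h replicate 4. Probe set 210358_x_at ran from 1.77 to 2.07, and its highest value was also that of 1,25(OH)2D 6 h replicate 1. Neither passed the filter, so neither was tested. Over the 24 arrays, the genes whose level was most like that of GATA2 209710_at were ARSI, a sulfatase, ZFP36, an mRNA-decay factor of the early response, and MICAL3, an actin-oxidizing enzyme, with Pearson r of 0.925, 0.924 and 0.922. These arrays share treatment and time, and r over the 6 group means was 0.970, 0.987 and 0.982.

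CD24 fell with 1,25(OH)2D, and the fall passed the test at 48 h. All 6 of its probe sets were lower with 1,25(OH)2D than in vehicle at each time, with differences of -0.56 to -0.33 at 6 h, then -0.999 to -0.656 after 24 h, and finally -1.19 to -0.97 after 48 h on the log2 scale. None passed the test at 6 h (adjusted p of 0.558 to 1.00), none at 24 h (0.0713 to 0.463) and all 6 at 48 h (4.42e-05 to 0.00120). At 24 h none of the 8 member probe sets was called, where 0.354% of all tested were. At 48 h 7 were called, 6 of CD24 and 1 of GATA2, where 9.64% of all tested were.

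The brightest CD24 probe set, 216379_x_at, read 10.29, 10.84, 11.40 and 11.16 in vehicle and 10.16, 10.10, 11.07 and 10.78 with 1,25(OH)2D at 6 h. At 24 h the values were 10.16, 11.00, 10.82 and 10.79 against 10.03, 9.72, 10.16 and 8.97. At 48 h they were 10.02, 9.98, 10.11 and 10.05 against 8.84, 9.14, 8.75 and 8.68. The groups overlapped at 6 h and, by the highest treated and the lowest vehicle array, at 24 h, and they were far apart at 48 h. The 48 h means were 8.85 ± 0.202 and 10.04 ± 0.0516 (SD, n = 4), a 2.28-fold fall (SE 0.0966 on the log2 scale, adjusted p = 2.86e-04).

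Probe set 208650_s_at had the narrowest spread at 24 h. Its values at 24 h were 10.29, 10.47, 10.36 and 10.12 in vehicle and 9.57, 9.66, 9.84 and 9.54 with 1,25(OH)2D. All treated arrays lay below all vehicle arrays, by 0.66 in the mean (SE 0.107, adjusted p = 0.0713). At 48 h it read 9.75, 9.69, 9.67 and 9.71 in vehicle and 8.82, 8.74, 8.29 and 8.56 with 1,25(OH)2D, a fall of 1.10 (SE 0.109, adjusted p = 7.54e-04). At 24 h, the treated arrays lay wholly below vehicle in 3 of the 6 probe sets, and in 2.46% of all tested ones. At 48 h this held for all 6, and for 9.26% of all tested ones.

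**Figure D3:**
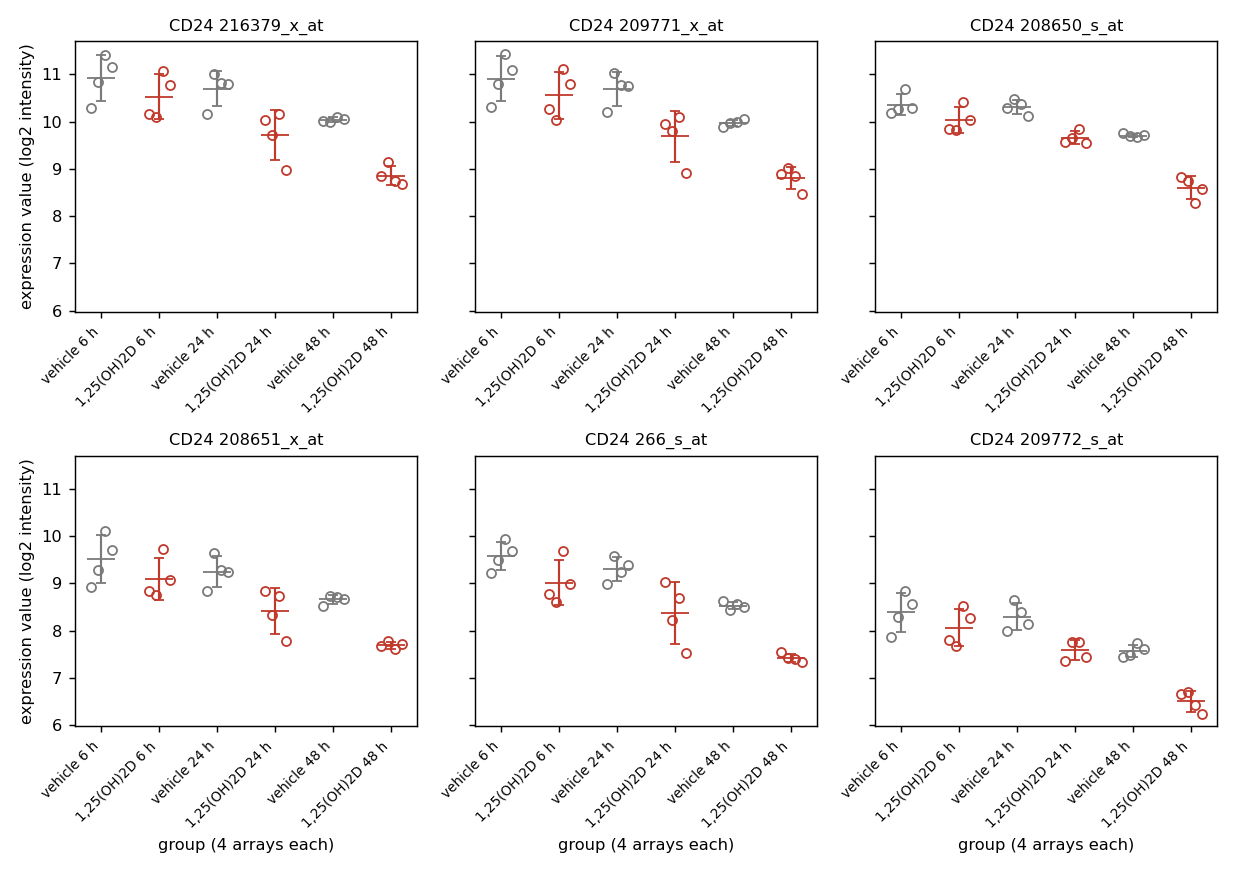
The 6 CD24 probe sets in the 6 groups (x axis), with 1 circle per array and a horizontal bar with SD for the mean of 4 arrays (y axis, log2 intensity, not starting at 0). In every panel 1,25(OH)2D 48 h is the group with the lowest mean, with values from 6.24 to 9.14 over the panels.

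The number of CD24 calls at 24 h depended on the setting. In 4 of the CD24 probe sets the lowest treated value at 24 h was that of replicate 4 by a wide gap, at 8.97, 8.91, 7.78 and 7.54. Over the 24 arrays, the deviation of the CD24 probe sets from their group means had correlations of 0.398 to 0.920 with the position on the first component, where replicate 4 was at -0.544. Without the arrays that stand apart, which at 24 h are vehicle replicate 1 and 1,25(OH)2D replicates 1 and 4, all 6 probe sets passed (adjusted p of 0.0205 to 0.0490). The differences were -0.945 to -0.567, but 21.2% of all tested probe sets passed too. Dropping arrays because they lie far from their group mean narrows the spread and leaves few arrays, so these calls cannot be read as a result about CD24. SAM, the permutation-based test of the study's methods, called 5 of 6 and 5.58% of all tested, and all 24 arrays in one fit called 1 of 6 and 2.13% of all tested.

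**Figure D4:**
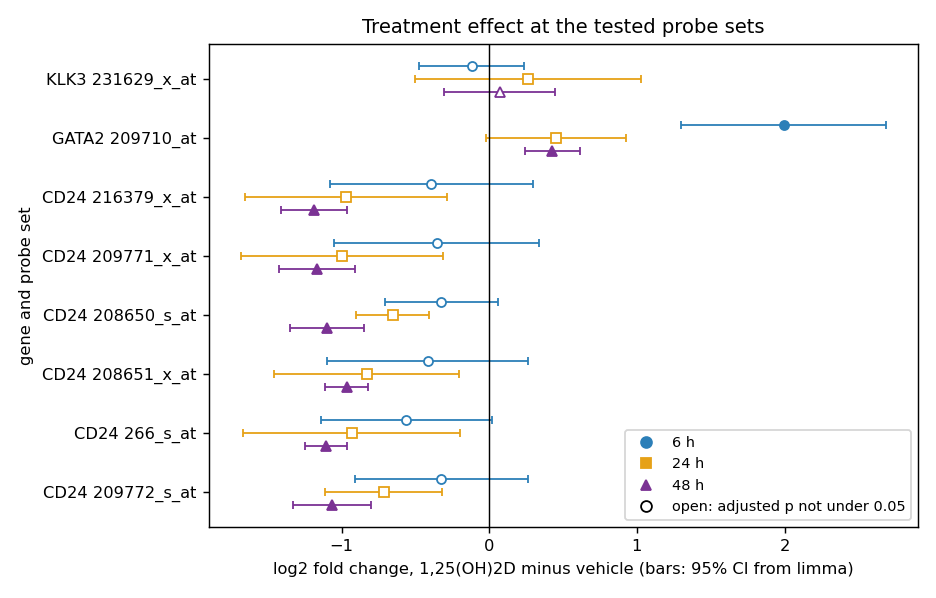
Log2 fold change of 1,25(OH)2D against vehicle (x axis) with its 95% interval, for the 8 tested probe sets (y axis), at 6 h (blue circles), 24 h (orange squares) and 48 h (purple triangles), filled where the adjusted p was under 0.05. GATA2 stands at 2.00 at 6 h, the 6 CD24 probe sets at -0.97 to -1.19 at 48 h, and the KLK3 intervals include 0 at all 3 times.

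CD24 also fell in vehicle. Between 6 and 48 h the vehicle level dropped by 0.65 to 1.05 (log2) in the 6 probe sets, and all 6 passed (adjusted p of 0.00232 to 0.0284), where 14.7% of all tested probe sets did. Between 6 and 24 h the vehicle changes of -0.27 to -0.04 gave 0 calls among the 8 (7.82% of all tested), and between 24 and 48 h those of -0.78 to -0.59 also gave 0 (0.316% of all tested). Without replicate 2, 3 or 4 of every group, the vehicle calls from 6 to 48 h dropped to 2, 1 and 2.

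With 1,25(OH)2D the level dropped by 1.40 to 1.75 from 6 to 48 h, and all 6 CD24 probe sets passed. With GATA2 that made 7 of the 8, where 17.4% of all tested did. From 6 to 24 h 3 of the 8 passed (CD24 216379_x_at and 209771_x_at, and GATA2, 16.7% of all tested), and from 24 to 48 h 2 passed (CD24 208650_s_at and 209772_s_at, 1.91% of all tested). By group means, CD24 was thus lowest in 1,25(OH)2D 48 h and highest in vehicle 6 h in all 6 probe sets. Vehicle 6 h overlapped with vehicle 24 h in all 6. The 1,25(OH)2D 48 h arrays overlapped with those of 1,25(OH)2D 24 h in 216379_x_at, 209771_x_at and 266_s_at, and lay below every other group in the rest.

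The treatment effect itself was called different between 6 and 48 h in only 1 CD24 probe set. In 208650_s_at the 48 h effect minus the 6 h effect was -0.78 (SE 0.191, adjusted p = 0.0282), and -0.72 without the arrays that stand apart (adjusted p = 0.0512). In the other 5 the difference was -0.54 to -0.81, with no call (adjusted p of 0.273 to 0.832). Leaving out replicate 1, 2 or 4 of every group also ended the call of 208650_s_at (adjusted p = 0.0814, 0.141 and 0.262).

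The 6 CD24 probe sets are not 6 independent measurements. They target 1 transcript, and their pairwise correlation over the 24 arrays was 0.917 to 0.995 (15 pairs). Names ending in x_at or s_at mark sequence shared with other transcripts, and the RefSeq table lists 5 CD24 pseudogenes, so the source of the signal is uncertain to that extent. As 1 value per gene, the mean of the probe sets fell by 0.40, 0.85 and 1.10 at 6, 24 and 48 h (adjusted p = 0.799, 0.215 and 3.80e-05). In cultures of many cells, a loss of CD24 RNA per cell and a smaller share of CD24-rich cells cannot be told apart.

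The genes most like CD24 over the 24 arrays were COL8A1, a collagen chain, MEST, an imprinted gene of the hydrolase fold, and RIMKLB, a ligase of amino acid conjugates. Their Pearson r with probe set 216379_x_at was 0.962, 0.961 and 0.951, and 0.989, 0.960 and 0.969 over the 6 group means.

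Most other luminal genes were not detected either. Of 20 named on the array, 8 had a tested probe set and 12 did not, among them ACP3, prostatic acid phosphatase, MSMB, a secreted protein of the gland, and FOLH1, prostate-specific membrane antigen. The luminal keratins KRT8, KRT18 and KRT19 were bright, with medians over the arrays of 12.97, 14.47 and 12.44. KLK4, SLC45A3 and AMACR passed close to the lowest value kept, with medians of 3.21, 3.23 and 3.33. Of 14 basal genes 13 were tested, and KRT5 and KRT14, the basal keratin pair, read 15.34 and 16.12. The label of an epithelial line thus held for keratins of both layers, while 12 of the 20 luminal genes were not detected.

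Few of the other luminal genes were called, as was so for all genes. None of the 8 rose or fell at 6 or 24 h. At 48 h 1 rose, PDLIM5, an adaptor of the actin skeleton, by 0.29 (SE 0.0735, adjusted p = 0.0448). Over all 12008 tested genes, 2.37% rose and 1.04% fell at 6 h, and 0.325% rose and 0.192% fell at 24 h. At 48 h 5.14% rose and 6.87% fell, so such low counts among 8 genes do not set the list apart. The median difference of the luminal list was -0.003, 0.12 and -0.004 at 6, 24 and 48 h, against -0.03, 0.01 and -0.01 for all genes. KRT8, KRT18 and KRT19 differed by 0.30, -0.03 and -0.48 at 48 h, none past the test (adjusted p = 0.221, 0.908 and 0.0961).

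Genes that respond to androgen in prostate cells moved in both directions. Of 22 on the array 19 were tested, and 1 rose and 1 fell at 6 h, where 2.37% of all genes rose and 1.04% fell. They were PMEPA1, a brake on TGF-beta signalling, at 0.74 (adjusted p = 0.0495), and NDRG1, a stress-responsive gene, at -0.74 (0.0129). None passed at 24 h, where 0.325% of all genes rose and 0.192% fell. At 48 h 4 rose and 4 fell, where 5.14% of all genes rose and 6.87% fell. STK39, a kinase of ion transport, and HOMER2, a scaffold protein, rose by 0.67 and 0.64, while ABCC4, a drug and prostaglandin exporter, and TSC22D1, a TGF-beta-induced factor, fell by 0.49 and 0.41. The tested HOMER2 probe set averaged less over the arrays than the gene's other one, which had a median of 2.72 and was not detected. It thus passed the filter only through its highest group, and its rise is not independent of the filter. The median difference was 0.04, -0.11 and -0.06 at 6, 24 and 48 h, against -0.03, 0.01 and -0.01 for all genes.

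Partners of the androgen receptor and the steroid 5-alpha reductases gave 1 rise at 6 h among 16 tested genes of 18, where 2.37% of all genes rose and 1.04% fell. It was FHL2, a LIM-domain coactivator, at 0.75 (SE 0.0901, adjusted p = 0.00317). At 48 h 1 rose and 3 fell, where 5.14% of all genes rose and 6.87% fell. FKBP4, a chaperone of steroid receptors, rose by 0.48, while TGFB1I1, a focal adhesion protein that also binds the receptor, and PIAS1, a SUMO ligase, fell by 0.56 and 0.45. None passed at 24 h, where 0.325% of all genes rose and 0.192% fell.

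Relatives of the transcription factors among the members behaved unlike one another. Of 19 FOXA, GATA, HOX and partner genes 12 were tested. At 6 h 2 rose, where 2.37% of all genes did: GATA6, a paralog of GATA2, by 2.03 (SE 0.165, adjusted p = 3.95e-04), and GRHL2, an epithelial grainyhead factor, by 0.79 (adjusted p = 0.0205). GATA6 differed by 0.04 at 24 h and 0.42 at 48 h, with no call (adjusted p = 0.948 and 0.403). HOXB5 rose by 0.31 at 48 h, the only call there, where 5.14% of all genes rose, and FOXA3, GATA1, GATA4 and GATA5 were not detected.

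Among membrane serine proteases and their inhibitors 6 of 11 genes were tested. TMPRSS4, a relative of TMPRSS2, rose by 1.86 at 48 h (SE 0.217, adjusted p = 0.00172), where ST14, the epithelial protease matriptase, rose by 0.26 (adjusted p = 0.0208), against 5.14% of all genes that rose. None passed at 6 h, where 2.37% of all genes rose and 1.04% fell, or at 24 h, where 0.325% rose and 0.192% fell. TMPRSS3, TMPRSS6 and TMPRSS13 were not detected.

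Basal genes were called in both directions. LAMB3, a chain of laminin-332, rose by 1.78 at 6 h and 0.47 at 48 h, and JAG1, a Notch ligand, fell by 1.04 at 6 h. At 48 h S100A2, a calcium-binding protein of basal cells, rose by 0.23, and ITGB4, the beta-4 integrin, fell by 0.37. KRT15, a keratin of basal cells, was lower than in vehicle by 1.92 at 48 h (SE 0.125, adjusted p = 9.35e-05). Its vehicle means rose over time, at 10.43, 11.80 and 12.42 at 6, 24 and 48 h. The treated means were 10.60, 10.28 and 10.50, so the gap at 48 h went with the vehicle rise and not with a loss in treated cells. Counted against vehicle, the basal calls are 1 rise and 1 fall among 13 tested genes at 6 h, 0 at 24 h, and 2 rises and 2 falls at 48 h. Of all genes, 2.37% rose and 1.04% fell at the first time, 0.325% rose and 0.192% fell at the second, and 5.14% rose and 6.87% fell at the last. The medians of the list were -0.01, -0.35 and 0.01, against -0.03, 0.01 and -0.01 for all genes.

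**Figure D5:**
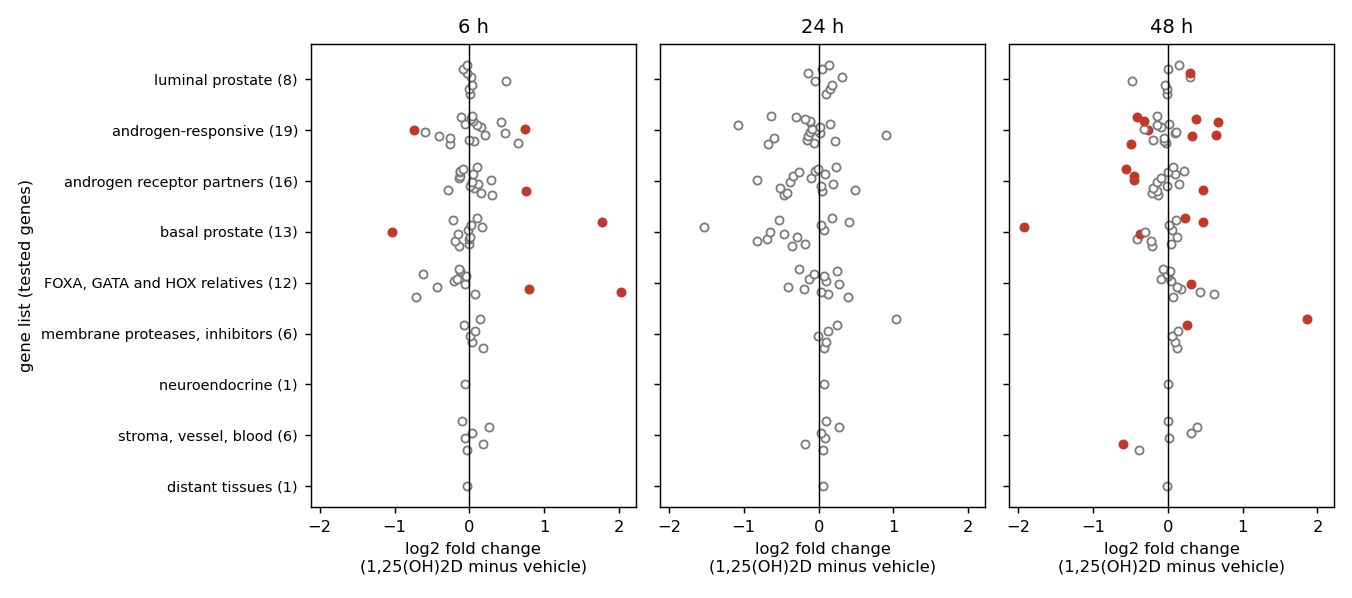
Log2 fold change of 1,25(OH)2D against vehicle (x axes, 1 panel per time) for the tested genes of 9 lists (y axis, number of tested genes in parentheses), with 1 circle per gene, filled red where the adjusted p was under 0.05. At 48 h the outermost filled circles are KRT15 at -1.92 among basal genes and TMPRSS4 at 1.86 among membrane proteases, and no circle is filled at 24 h.

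Markers of other cell types were mostly at the floor. Of 14 genes of stroma, vessels and blood 6 were tested, and COL1A2, DCN, VWF, CD3E and HBB were not detected. COL1A1, a collagen chain, had a median of 10.02 and fell by 0.60 at 48 h (adjusted p = 0.0136). It was the only call of its list there, where 5.14% of all genes rose and 6.87% fell. The list's summed linear value at 48 h ran from 1168 to 1620 in vehicle and from 888 to 1007 with 1,25(OH)2D. That sum is mostly COL1A1, with 48 h means of 10.18 in vehicle and 9.58 with 1,25(OH)2D (log2). ACTA2, the next brightest, had 6.67 and 6.29. The median difference of the list was 0.009 at 48 h, so the sum does not show a fall of the list. Of 6 neuroendocrine genes only INSM1 was tested, with a median of 3.32, and CHGA was not detected. Neither list gave a call at 6 h, where 2.37% of all genes rose and 1.04% fell, or at 24 h, where 0.325% rose and 0.192% fell. The part of these lists in the CD24 and GATA2 results was not tested.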

How the data were processed

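Total RNA of 24 RWPE1 samples was measured on Affymetrix U133 Plus 2.0 arrays. The authors normalized all arrays together and summarised probe sets with gcRMA, whose version is not given in the sources used here, and the deposited values are log2 intensities of 54613 probe sets and 62 controls. The authors filtered by MAS5 calls. Those were not used here, and the same number of probe sets, 25986, was kept by the value that 3 arrays of a group reached. Of all but the controls, 41091 carry 1 gene symbol, 1801 several and 11721 none. Groups come from the sample titles.

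Each time point (8 arrays) was fitted with limma 3.58.1 (lmFit, eBayes; R 4.3.3), and changes over time with all 24 arrays and 6 group means. Adjusted p-values are Benjamini-Hochberg adjusted over all 25986 probe sets, or over 12008 genes where the probe sets of a gene were averaged, with 0.05 as the threshold; SAM was re-implemented with all relabellings. Every member probe set is named. For the lists the brightest tested probe set of a gene was used, and the 2 largest called rises and falls of each list at each time are named, with undetected genes a statement turns on. Keratins and other list genes named for their levels were chosen after their values were seen. The methods were tested on simulated data. The members, lists and tests were chosen with earlier results of these data known. Promoters come from RefSeq (GRCh38.p14), with a match for 5 of 7 genes. Python 3.11.15, numpy 2.4.6 and pandas 2.3.3 made the tables.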

Additional observations from a re-analysis of the deposited data

Results flagged for a closer look

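In the test for a sample far from the other 3 of its group, 2 of 48 groups (8 tested probe sets in 6 groups) were flagged, and chance flags about 1 in 20. Both belong to KLK3 231629_x_at: 4.19 in vehicle 6 h replicate 1 and 5.20 in 1,25(OH)2D 24 h replicate 4. Both arrays are among those that stand apart on the first component.

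The 1,25(OH)2D effect differed between times for GATA2 209710_at, by -1.54 between 6 and 24 h and by -1.57 between 6 and 48 h, and for CD24 208650_s_at by -0.78 between 6 and 48 h (log2, limma, adjusted p = 0.0104, 0.00768 and 0.0282).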

How the results depend on the processing

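No called member value changed direction: of the values of single member probe sets under an alternative, 1107 stayed on the same side of the threshold, 43 lost it, 30 gained it and 0 reversed. At 24 h, where 0 of 8 probe sets were called, the count was 1 with all 24 arrays in one fit, 5 with SAM, 1 with an offset of 32 on the linear scale and 6 once the arrays that stand apart were dropped, which was decided after seeing the data. Over all probe sets, calls went from 92 to 553, 1451, 130 and 5499 under these settings in turn. At 48 h the 7 probe sets are 2 genes when a gene's probe sets are averaged. For effects that differed between times (2 probe sets), the count was 1 with no filter, 1 with centring on the medians, 1 without the arrays that stand apart, and 0 to 1 with a replicate left out. For changes in vehicle (6) it was 3 with no filter and 1 to 6 with a replicate left out. Centring moved the median of all tested probe sets at 24 h from 0.02 to 0.18. In the gene lists, 26 of 82 genes were called at some time, and 24 when probe sets were averaged per gene, against 13.9% of all 12008 genes called at some time.

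The replicate numbers were checked for pairing. Same-numbered treated and vehicle arrays had correlated deviations in 3 of 4 pairs at 6 h, 1 of 4 at 24 h and 0 of 4 at 48 h (r over 0.1). At 6 h r was 0.756, 0.589 and 0.670 in those 3 pairs and -0.366 in the remaining one. Since not every pair exceeded 0.1, the numbers were not taken as pairs, but pairing at 6 h is not settled. With the block, CD24 at 6 h was still not called (adjusted p of 0.103 to 0.328). With the replicate block the counts of member probe sets stayed at 1, 0 and 7 at 6, 24 and 48 h, 2 for differences between times, 6 over time in vehicle and 7 over time with 1,25(OH)2D. Over all probe sets the block left 1 call at 24 h in place of 92. Arrays near the background limit what can be said of the undetected genes.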
